A study of Mus musculus with 15 samples.

Results

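Cytoplasmic RNA was compared with chromatin RNA in mouse macrophages at 5 times of stimulation, with 5 cytoplasmic and 5 chromatin libraries out of 15 in the study. The cells were bone marrow-derived macrophages of C57BL/6 mice of mixed sex, grown in medium with M-CSF, the growth factor that turns marrow precursors into macrophages. The cytoplasmic libraries came from unstimulated cells (0 min) and from cells given 100 ng/ml lipid A for 15, 30, 60 or 120 min. The chromatin libraries came from the same 5 conditions. Lipid A is the membrane anchor of lipopolysaccharide from bacteria and is sensed by the receptor Tlr4. No genotype or deletion distinguished the groups, and the remaining 5 libraries held nucleoplasmic RNA. Genes were taken into the comparison when they reached 1 RPKM (reads scaled to exon length and to the depth of the library) in 3 or more of the 10 libraries, which held for 9095 of 10020 listed genes. There was 1 library per fraction and time, and each fraction is therefore described by its 5 times. Nothing in the labels ties the fractions of a time to the same plates, so p-values set a mean difference against its variation over the 5 times.

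Chromatin RNA is the RNA left on the pellet after nuclei are lysed with detergent and urea, and it holds transcripts still attached to RNA polymerase II together with RNAs that stay on chromatin. Cytoplasmic RNA is what a mild detergent frees from the cell before the nuclei are spun down, and it is mostly mature mRNA. The level of a gene's exons in chromatin RNA follows how often it is transcribed and how long its RNA remains there, and the level in cytoplasmic RNA also follows how long the mRNA lives. mRNAs of secreted and membrane proteins are translated at the endoplasmic reticulum, whose membrane continues into the nuclear envelope, while most other mRNAs are translated in the cytosol.

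The cytoplasmic libraries held 15.6 to 19.9 M reads and the chromatin libraries 38.8 to 52.3 M reads, so 1 read in 1 kb of exon was worth 0.0504 to 0.0642 RPKM in cytoplasmic RNA and 0.0191 to 0.0258 RPKM in chromatin RNA. RPKM is a share of the reads of a library, and fewer molecules per cell and a smaller part of the fraction cannot be told apart. The labels of the fractions were checked in 476 induced genes for which whole-gene values were also deposited. In the median gene with 20 reads or more, 93.9%, 91.7%, 91.5%, 96.6% and 95.8% of whole-gene reads lay in exons in cytoplasmic RNA from 0 to 120 min. In chromatin RNA the shares were 34.1%, 27.9%, 29.4%, 29.6% and 41.6%, so the fractions did not overlap and introns took most of the chromatin reads. The difference averaged 61.4 ± 4.78 percentage points (SD, n = 5 times), with an exact two-sided sign-flip permutation p of 0.0625, the smallest that 5 pairs allow. Malat1, a noncoding RNA of nuclear speckles, had 38.2, 38.9, 31.6, 12.5 and 15.3 RPKM in cytoplasmic RNA, against 1667, 1898, 1790, 1636 and 1322 RPKM in chromatin RNA. Neat1, the scaffold RNA of paraspeckles, had 1.57 to 5.78 RPKM in cytoplasmic RNA and 120 to 508 RPKM in chromatin RNA. Actb, which encodes beta-actin, stood the other way, with 1102 to 1577 RPKM in cytoplasmic RNA and 155 to 348 RPKM in chromatin RNA. Of the macrophage markers, 10 of 12 were among the genes tested, and their summed level was 1327 to 2837 RPKM in cytoplasmic RNA and 1456 to 2266 RPKM in chromatin RNA. Neutrophil markers passed the filter for 5 of 13 genes and summed to 36.4 to 76.6 RPKM in cytoplasmic RNA and 14.2 to 37.3 RPKM in chromatin RNA, and their part in the results was not tested. Of the markers of T cells, B cells, dendritic cells, erythroid and stromal cells, 1 or 2 genes per list passed the filter.

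Most genes had higher exon levels in cytoplasmic RNA. The median gene had a difference (cytoplasmic minus chromatin, log2 of RPKM + 0.5) of 0.80, or 1.74-fold, and the median was 0.53, 0.66, 1.07, 1.37 and 0.45 from 0 to 120 min. By limma, 3842 genes (42.2% of those tested) were higher in cytoplasmic RNA and 482 genes (5.3%) were higher in chromatin RNA, at a Benjamini-Hochberg adjusted p under 0.05 and 2-fold or more. Listed exons held 28.1% to 44.2% of cytoplasmic reads and 20.6% to 27.2% of chromatin reads, and the same fit was made after centring each library on its median gene. Then 1415 genes (15.6%) lay 2-fold or more above the median gene, towards cytoplasmic RNA, and 1597 genes (17.6%) lay as far below it, towards chromatin RNA. All 482 genes called higher in chromatin RNA as deposited were also called after centring, which lowered every difference. Only 63 of the 482 carried a noncoding accession, so 419 (86.9%) were protein-coding genes, and the groups below are about these. Counts for a family are given after centring unless the sentence says otherwise, and a family's median is given relative to the median gene. In counts and shares of genes, above or below the median gene means called 2-fold or more from it at an adjusted p under 0.05.

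**Figure D1:**
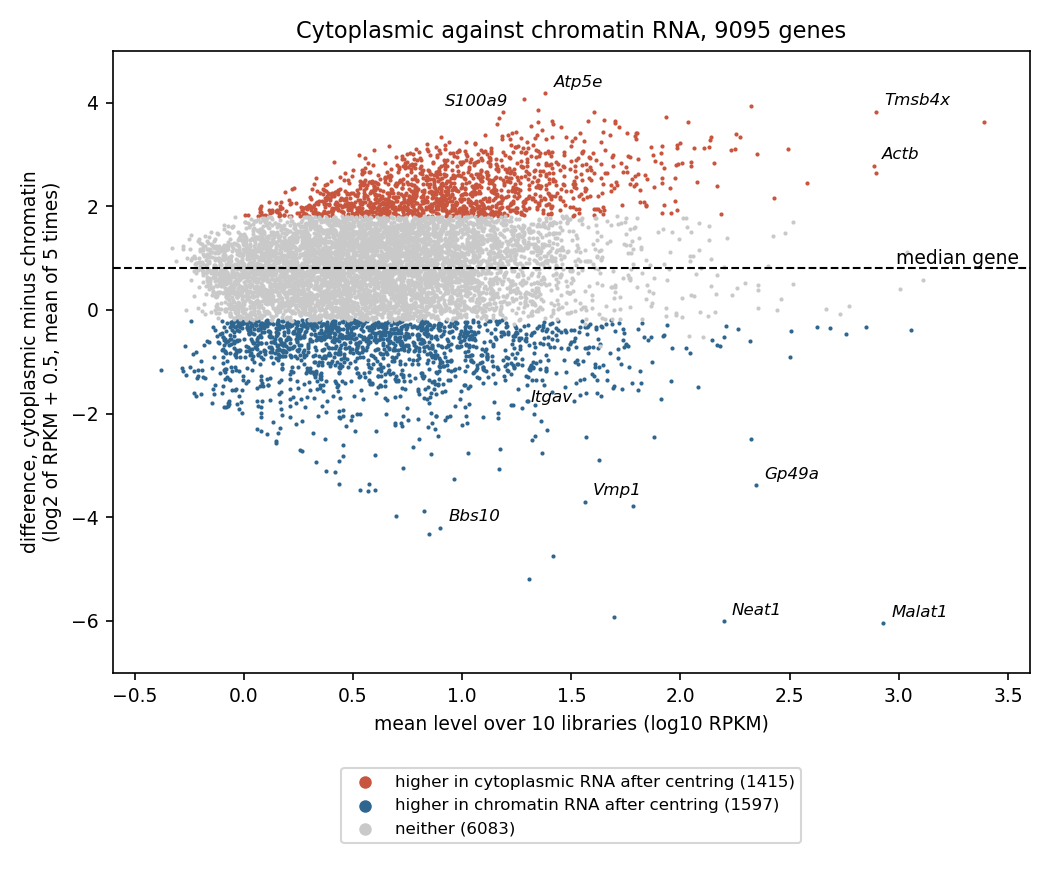
Difference between cytoplasmic and chromatin RNA (vertical axis, log2, mean of 5 times) against the mean level over the 10 libraries (horizontal axis, log10 RPKM), with 1 point per gene and the dashed line at the median gene (0.80). Red points (1415) lie 2-fold or more above the median gene and blue points (1597) as far below it, with Malat1 and Neat1 lowest among the genes named on the plot and Atp5e highest.

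At the cytoplasmic end stood short transcripts for small, abundant proteins of the mitochondrial inner membrane, the cytoskeleton and the cytosol. Atp5e, the epsilon subunit of mitochondrial ATP synthase, had 48.5, 52.1, 45.9, 50.3 and 32.8 RPKM in cytoplasmic RNA from 0 to 120 min, against 1.79, 1.29, 2.18, 2.0 and 3.18 RPKM in chromatin RNA. Every cytoplasmic value was over 10 times every chromatin value, and the difference was 4.19 ± 0.26 (log2, SE; 18.2-fold, limma adjusted p = 2.28e-20). S100a9, a calcium-binding alarmin subunit that also marks neutrophils, had 21.6, 32.7, 40.7, 55.1 and 34 RPKM in cytoplasmic RNA, against 2.01, 1.37, 1.94, 0.899 and 2.27 RPKM in chromatin RNA. Its level at 60 min was the highest in cytoplasmic RNA and the lowest in chromatin RNA, and the groups did not overlap. Tmsb4x, thymosin beta, which binds actin monomers, had 1362, 1242, 1491, 2173 and 1111 RPKM in cytoplasmic RNA, against 103, 89.7, 107, 81.0 and 130.0 RPKM in chromatin RNA. The cytoplasmic peak at 60 min coincided with the lowest chromatin value, and the difference was 3.82 ± 0.35 (log2, SE).

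The other genes of the cytoplasmic end under the naming rule were Sh3bgrl3, Hist1h4h, Rplp1, Aes, Dynlrb1, Lamtor2, Gltp, Hint1 and Ap2s1, with differences of 3.93 to 3.64. Sh3bgrl3, a small thioredoxin-like protein, had 349 to 434 RPKM in cytoplasmic RNA and 20.6 to 38.4 RPKM in chromatin RNA. Dynlrb1, a light chain of the dynein motor, had 134 to 207 RPKM in cytoplasmic RNA and 7.02 to 21.5 RPKM in chromatin RNA. Lamtor2, a subunit of the Ragulator complex that anchors mTORC1 signalling on lysosomes, had 18.4 to 32.8 RPKM in cytoplasmic RNA and 1.16 to 2.36 RPKM in chromatin RNA. None of these ranges overlapped. Aes, a Groucho-related corepressor, had 45.5 to 88.2 RPKM in cytoplasmic RNA and 3.06 to 8.01 RPKM in chromatin RNA. Gltp, which carries glycolipids between membranes, Hint1, a nucleotide hydrolase, and Ap2s1, the small chain of the clathrin adaptor AP-2, differed 12.7-fold, 12.5-fold and 12.5-fold. All 12 genes of this end had exons of 2095 bases or less, and no protein of the 12 had a long hydrophobic stretch. Sh3bgrl3, Hist1h4h and Rplp1 shared 22%, 49.7% and 74.1% of their 32-base words with transcripts of other genes, so their levels are uncertain.

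**Figure D2:**
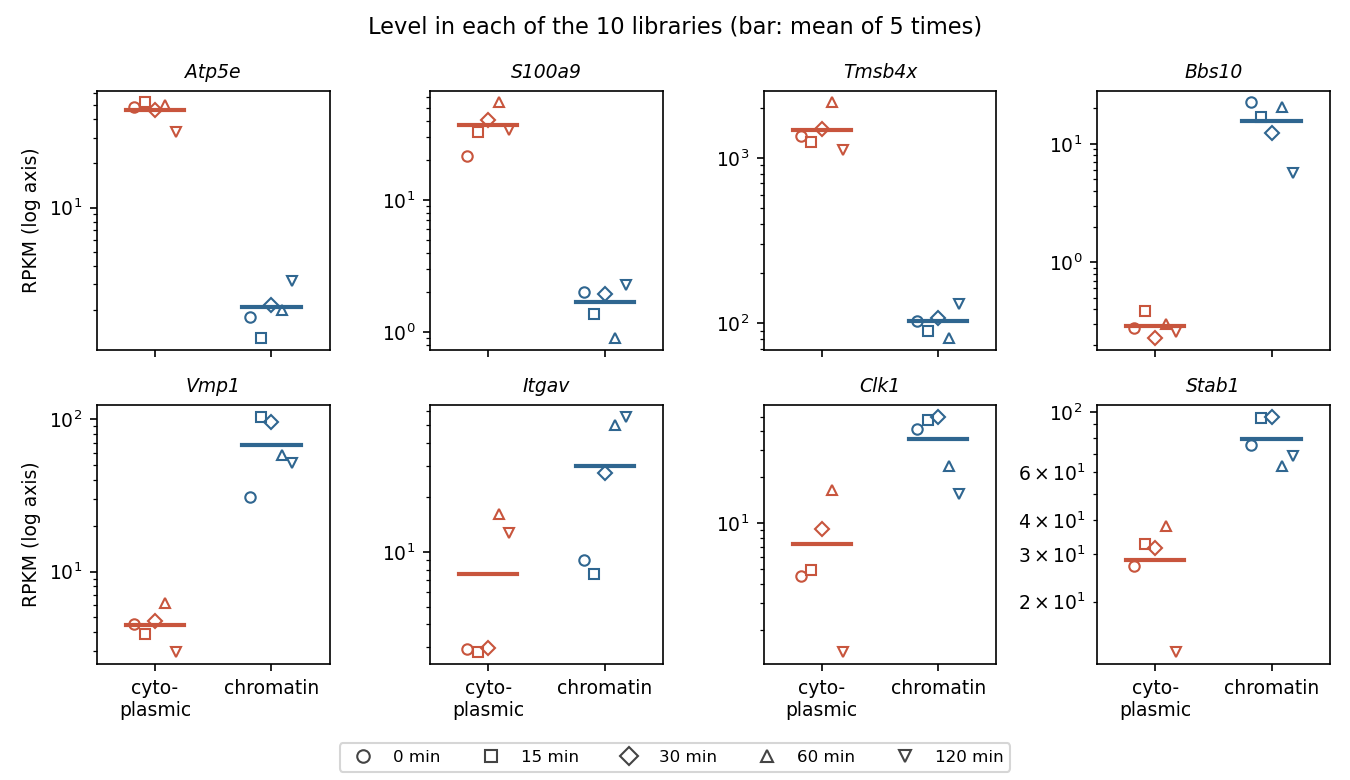
RPKM (log axis) of 8 genes in each of the 5 cytoplasmic libraries (left, red) and the 5 chromatin libraries (right, blue), with 1 marker shape per time and a bar at the mean of 5 times. Atp5e, S100a9 and Tmsb4x are higher in every cytoplasmic library, Bbs10, Vmp1 and Stab1 are higher in every chromatin library, and the values of Itgav and Clk1 overlap between the fractions while each time's pair has chromatin higher.

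Genes of several whole machines lay towards the cytoplasmic end. Over all genes tested 15.6% lay above the median gene and 17.6% below. These are the shares to set beside the counts here and in the following paragraphs. Of 76 respiratory chain and ATP synthase genes, 53 lay above the median gene and 3 below it, with a family median of 1.61 above the median gene (log2). Uqcrq, a subunit of complex III, had 24.5 to 72.1 RPKM in cytoplasmic RNA and 1.79 to 5.01 RPKM in chromatin RNA. Ndufb7, of complex I, had 27.7 to 54.6 RPKM in cytoplasmic RNA and 1.92 to 4.69 RPKM in chromatin RNA. Neither gene's ranges overlapped. The 3 genes below the median gene were Cox11, Cox16 and Cox18, which help to assemble cytochrome oxidase and are not subunits of it. Their differences as deposited were -0.62, -0.41 and -0.21, none of them past the threshold there, and Cox11 and Cox16 shared 55.5% and 88.8% of their words with other genes. In the whole family 23 of 76 genes shared 20% or more of their words. Mitochondrial ribosomal proteins had 29 of 71 genes above the median gene and 0 below, and proteins of the Tim and Tom import complexes had 4 of 17 above and 0 below. Of the 71 mitochondrial ribosomal protein genes, 19 shared 20% or more of their words.

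Protein turnover and folding machines of the cytosol stood on the same side. Proteasome subunits had 20 of 36 genes above the median gene and 1 below, with a median of 1.07. Psma7, a subunit of the core barrel, had 24.2 to 45.6 RPKM in cytoplasmic RNA and 3.82 to 7.79 RPKM in chromatin RNA. The exception, Psma3, had 0.181 to 0.426 RPKM in cytoplasmic RNA and 1.45 to 4.69 RPKM in chromatin RNA, and it shared 27.3% of its words with other genes. Among the 36 proteasome genes, 8 shared 20% or more of their words. The 8 genes of the chaperonin TRiC, which folds actin and tubulin, were all higher in cytoplasmic RNA as deposited, and 5 of them lay above the median gene. Cct5 had 32.3 to 64.1 RPKM in cytoplasmic RNA and 7.48 to 13.8 RPKM in chromatin RNA. Translation elongation factors had 5 of 6 genes above the median gene and initiation factors 17 of 53 above and 5 below. Eif3f, of the large initiation complex, had 31.2 to 44.4 RPKM in cytoplasmic RNA and 3.45 to 5.85 RPKM in chromatin RNA. Eif4a2, a helicase of initiation, was called the other way, with 1.39 to 3.73 RPKM in cytoplasmic RNA and 6.76 to 17.9 RPKM in chromatin RNA and 24.3% shared words. Among the 53 initiation factor genes, 11 shared 20% or more of their words.

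Actin regulators, calcium-binding proteins and iron and redox genes formed the rest of this end. In the actin list 18 of 30 genes lay above the median gene and 2 below. Arpc3, a subunit of the Arp2/3 complex that branches actin filaments, had 218 to 464 RPKM in cytoplasmic RNA and 19.2 to 43.6 RPKM in chromatin RNA. The 2 below were Actg1 and Myl6, which shared 57.1% and 64.7% of their words with other genes. In the whole list 11 of 30 genes shared 20% or more of their words. S100 proteins and annexins had 11 of 16 genes above the median gene and 0 below, with a median of 1.30. Iron storage and antioxidant genes had 16 of 20 above and 0 below, with a median of 1.42. Fth1, the heavy chain of ferritin, had 3596 to 5497 RPKM in cytoplasmic RNA and 319 to 447 RPKM in chromatin RNA. Gpx1, a glutathione peroxidase, had 220 to 430 RPKM in cytoplasmic RNA and 20.7 to 69.2 RPKM in chromatin RNA. Each of these ranges lay apart.

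Histones and splicing core proteins were also nearer the cytoplasmic end. Of 30 replication-dependent histone genes, whose mRNAs end in a stem-loop and are not spliced, 20 lay above the median gene and 0 below, with a median of 1.59. Of these 30 genes, 24 shared 20% or more of their words with other genes, so single values are uncertain and the family can be read only as a group of related sequences. Libraries were made from total RNA depleted of ribosomal RNA and not by binding poly(A) tails, per the labels' protocols. Sm and Lsm proteins, the rings around spliceosomal RNAs and their relatives, had 7 of 15 genes above the median gene and 0 below. Mitotic genes had 6 of 22 above and 0 below, and DNA replication genes 8 of 22 above and 0 below.

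**Figure D3:**
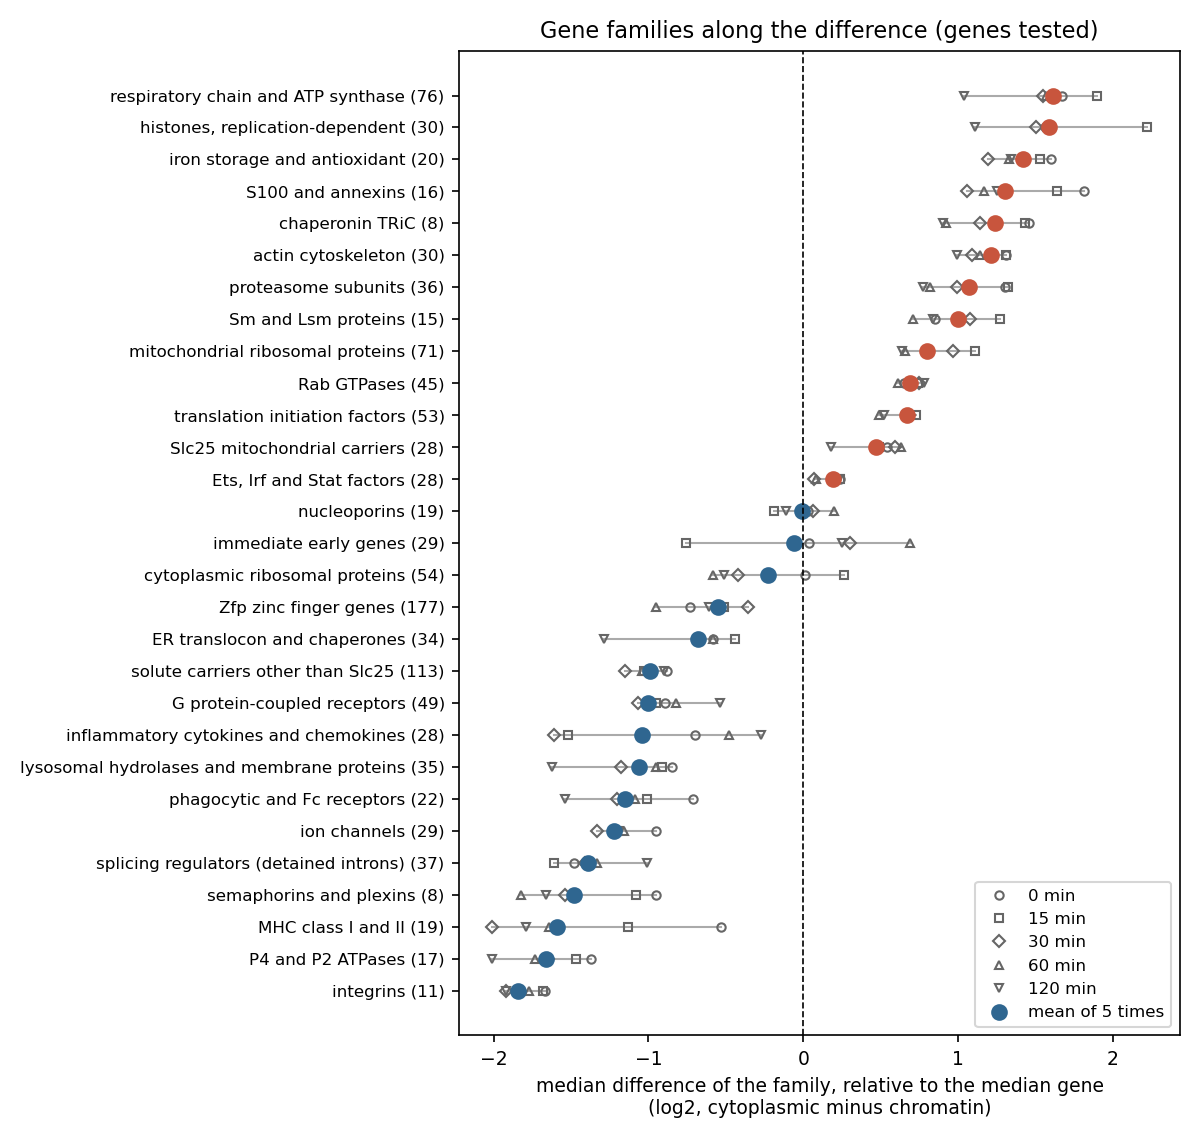
Median difference of 29 gene families relative to the median gene (log2, cytoplasmic minus chromatin), with the number of genes tested in parentheses. Filled circles are the mean of 5 times (red above 0, blue below) and open markers the 5 single times, with the respiratory chain at the top at 1.61 and integrins at the bottom at -1.84.

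At the chromatin end stood genes for a chaperone-like protein, splicing-related proteins, membrane transporters and surface receptors. Bbs10, a chaperonin-like protein of ciliary trafficking, had 0.280, 0.390, 0.229, 0.299 and 0.256 RPKM in cytoplasmic RNA from 0 to 120 min, against 22.4, 16.8, 12.3, 20.3 and 5.61 RPKM in chromatin RNA. Every chromatin value was over 10 times every cytoplasmic value, and the difference was -4.20 ± 0.27 (log2, SE; limma adjusted p = 1.75e-19). D4Wsu53e, listed by RefSeq as Rsrp1, an arginine- and serine-rich protein, had 7.53, 9.19, 7.20, 7.03 and 6.94 RPKM in cytoplasmic RNA, against 106, 121, 104, 73.8 and 164 RPKM in chromatin RNA. Its cytoplasmic level was nearly flat over the 5 times. Vmp1, a membrane protein of the endoplasmic reticulum needed for autophagy, had 4.49, 3.87, 4.77, 6.20 and 2.94 RPKM in cytoplasmic RNA, against 30.9, 104, 96.0, 58.0 and 52.0 RPKM in chromatin RNA. The chromatin level was lowest at 0 min and no value of it overlapped the cytoplasmic values.

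The other coding genes of the chromatin end under the naming rule were Eid3, Gp49a, Pde1b, Abcc5, Slc2a6, Sap25, Leng8, Ogt and Mcoln2, with differences of -3.88 to -2.69. Ogt, the enzyme that attaches the sugar GlcNAc to nuclear and cytosolic proteins, had 4.34 to 7.51 RPKM in cytoplasmic RNA and 34 to 50.6 RPKM in chromatin RNA. Pde1b, a calmodulin-dependent phosphodiesterase, had 0.921 to 1.84 RPKM in cytoplasmic RNA and 12.3 to 21.5 RPKM in chromatin RNA. Mcoln2, a cation channel of endolysosomes, had 2.40 to 5.72 RPKM in cytoplasmic RNA and 13.1 to 49.4 RPKM in chromatin RNA. All of these ranges lay apart. Abcc5, an exporter of the ABC family, had 1.67 to 3.94 RPKM in cytoplasmic RNA and 21.8 to 33.3 RPKM in chromatin RNA. Slc2a6, a glucose transporter relative, had 3.97, 3.01, 4.42, 15.0 and 16.9 RPKM in cytoplasmic RNA, against 7.97, 42.8, 97.2, 95.1 and 138 RPKM in chromatin RNA. It was the only one of the 24 named end genes whose groups overlapped (41.8% of all genes tested had groups that did not overlap). Leng8 had 1.21 to 3.14 RPKM in cytoplasmic RNA and 17.1 to 20.5 RPKM in chromatin RNA.

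For 3 genes of this end the counted exons also lie within another gene of the same strand in GENCODE. All exon bases of Eid3 lie inside Txnrd1, all of Gp49a inside Gm49339, and 99.7% of Sap25 inside Gm20605, so reads of the longer gene cannot be told apart from theirs. Eid3 had 0.0457 to 0.379 RPKM in cytoplasmic RNA and 3.30 to 25.5 RPKM in chromatin RNA, and Gp49a, an inhibitory-receptor relative, had 22.6 to 60.9 RPKM in cytoplasmic RNA and 203 to 598 RPKM in chromatin RNA. Over all genes with a reference transcript, 4.14% lay so within another gene for 50% or more of their exons, against 6.58% of those called higher in chromatin RNA as deposited. Without such genes 1322 genes lay above the median gene and 1474 below it.

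Splicing regulators, which are not membrane proteins, also lay at the chromatin end. The list held 37 tested genes known for introns that stay in nuclear RNA or for exons that send the mRNA to decay. Ogt, the GlcNAc enzyme named above, was on it as well and is not a splicing regulator. Of the 37 genes, 25 lay below the median gene and 0 above, with a median of -1.39. As deposited, 1 was called higher in cytoplasmic RNA and 11 in chromatin RNA. Clk1, a kinase of SR proteins, had 4.49, 4.92, 9.15, 16.4 and 1.42 RPKM in cytoplasmic RNA, against 41.5, 47.6, 49.9, 23.9 and 15.5 RPKM in chromatin RNA. The chromatin value was higher at each time, and the groups overlapped only through 60 min in cytoplasmic RNA and 120 min in chromatin RNA. Luc7l3, a relative of a yeast U1 snRNP protein, had 2.59 to 4.82 RPKM in cytoplasmic RNA and 11.3 to 22.8 RPKM in chromatin RNA. Sfrs18, an SR-related protein, had 0.898 to 3.13 RPKM in cytoplasmic RNA and 8.21 to 19.4 RPKM in chromatin RNA. The SR splicing factor family had 5 of 11 genes below the median gene and 1 above, which was Srsf9, and the hnRNP family had 7 of 19 below and 2 above. As deposited the balance turned in both, with 2 SR genes higher in cytoplasmic RNA and 1 in chromatin RNA, and 6 and 4 hnRNP genes.

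Several families of membrane and secreted proteins lay below the median gene. Integrins, the adhesion receptors, had 9 of 11 genes below the median gene and 0 above, with a median of -1.84. Pumps of the P-type ATPase groups that move lipids and cations had 14 of 17 below and 0 above, with a median of -1.66. MHC class I and II genes had 13 of 19 below and 1 above, and semaphorins and plexins 6 of 8 below and 0 above. Ion channels had 18 of 29 below (1 of them the noncoding Kcnq1ot1) and 1 above, phagocytic and Fc receptors 13 of 22 below and 0 above, lysosomal proteins 19 of 35 below and 0 above, G protein-coupled receptors 25 of 49 below and 1 above, and ABC transporters 13 of 26 below and 0 above. Over all genes tested the shares were 17.6% below and 15.6% above. Other lists rich in membrane proteins were nearer to these shares, with 22 of 107 Tmem genes below and 12 above, 10 of 44 glycosyltransferases below and 0 above, and 4 of 21 genes of cholesterol synthesis below and 1 above. Of the 19 MHC genes 8 shared 20% or more of their words with other genes, so their count is uncertain.

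As deposited, fewer of these were called, where 42.2% of all genes tested were higher in cytoplasmic RNA and 5.3% in chromatin RNA. Integrins had 1 of 11 genes higher in cytoplasmic RNA and 6 in chromatin RNA, the pumps 0 and 7 of 17, MHC genes 4 and 8 of 19, and phagocytic and Fc receptors 2 and 6 of 22. Ion channels had 4 and 6 of 29 in the same order, and ABC transporters 6 and 5 of 26. Semaphorins and plexins had 0 and 1 of 8, lysosomal genes 1 and 3 of 35, and G protein-coupled receptors 2 and 3 of 49, whose shares in chromatin RNA were near that of all genes. Stab1, a scavenger receptor, had 27.1, 32.6, 31.5, 38.0 and 13 RPKM in cytoplasmic RNA, against 75.7, 94.7, 96.2, 63.4 and 68.8 RPKM in chromatin RNA. The groups did not overlap, and the difference was -1.54 ± 0.27 (log2, SE; limma adjusted p = 1.82e-06). Itgav, the integrin alpha V chain, had 2.93, 2.8, 2.98, 16.2 and 12.8 RPKM in cytoplasmic RNA, against 9.09, 7.53, 27.4, 50.1 and 55.8 RPKM in chromatin RNA. Both fractions were highest at the late times, so the groups overlapped although chromatin RNA was higher in every pair. Mrc1, the mannose receptor, had 14.5 to 35.2 RPKM in cytoplasmic RNA and 53.2 to 94.1 RPKM in chromatin RNA. Man2b1, a lysosomal mannosidase, had 8.04 to 17.3 RPKM in cytoplasmic RNA and 25.5 to 40.5 RPKM in chromatin RNA. Abca1, a cholesterol exporter, had 4.17 to 14 RPKM in cytoplasmic RNA and 14.5 to 27.3 RPKM in chromatin RNA, and Atp13a1, a pump of the endoplasmic reticulum, had 2.21 to 3.35 RPKM in cytoplasmic RNA and 6.27 to 24.2 RPKM in chromatin RNA. H2-K1, an MHC class I chain, had 38.7 to 59.1 RPKM in cytoplasmic RNA and 73.3 to 201 RPKM in chromatin RNA, with 22.2% of its words shared with other genes.

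The start of the coding sequence was compared between genes of both ends. Signal peptides and signal anchors are runs of hydrophobic residues that direct a ribosome to the endoplasmic reticulum. The first 105 coding bases are given for 3 genes towards chromatin RNA picked because they start with such a run, and for 3 genes of the cytoplasmic end picked because they do not, from GENCODE vM21 transcripts on GRCm38. Capitals mark the codons of the most hydrophobic 12 residues where their mean on the Kyte-Doolittle scale reached 2 or more, and a sequence without capitals has no such run. The genes lie at chr2:83724397-83806916, plus strand (Itgav), chr14:31139013-31168641, minus strand (Stab1), chr5:92441314-92506833, minus strand (Scarb2), chr2:174461072-174464105, minus strand (Atp5e), chrX:167207093-167209315, minus strand (Tmsb4x) and chr2:180036374-180042433, minus strand (Psma7). Scarb2 is a membrane protein of lysosomes, with 8.62 to 16.6 RPKM in cytoplasmic RNA and 15.8 to 30.7 RPKM in chromatin RNA.
Itgav: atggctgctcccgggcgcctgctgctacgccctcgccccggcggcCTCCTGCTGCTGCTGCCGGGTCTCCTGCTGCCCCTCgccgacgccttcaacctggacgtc
Stab1: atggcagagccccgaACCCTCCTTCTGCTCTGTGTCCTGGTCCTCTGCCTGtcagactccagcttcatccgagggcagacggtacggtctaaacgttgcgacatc
Scarb2: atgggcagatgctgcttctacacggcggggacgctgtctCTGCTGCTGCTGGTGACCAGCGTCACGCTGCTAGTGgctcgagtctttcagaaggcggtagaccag
Atp5e: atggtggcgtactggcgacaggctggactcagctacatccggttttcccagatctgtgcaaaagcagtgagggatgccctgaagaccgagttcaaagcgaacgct
Tmsb4x: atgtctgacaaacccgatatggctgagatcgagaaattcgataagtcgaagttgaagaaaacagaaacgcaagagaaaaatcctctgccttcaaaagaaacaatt
Psma7: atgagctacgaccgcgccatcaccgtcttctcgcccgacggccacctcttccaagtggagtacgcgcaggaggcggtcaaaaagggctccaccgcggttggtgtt

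The capitals cover codons 16 to 27 of Itgav, 6 to 17 of Stab1 and 14 to 25 of Scarb2. The same search was run on the 8846 tested genes with a reference coding sequence, together with a search for later stretches of 19 residues with a mean of 1.6 or more, as in membrane-spanning helices. Genes with no stretch (6009) had a median of 0.24 above the median gene. Genes with an N-terminal stretch only (456), a layout found in secreted proteins, had a median of -0.56. Those with 1 internal stretch (1384) had -0.35 and those with several (997), a layout found in transporters and channels, -0.68. The search reads sequence alone and also marked proteins of other kinds. Among these were Bbs10 (several internal stretches), Pde1b (1 internal stretch) and 13 of 47 matched helicases of the DEAD and DEAH families. A marked gene is therefore not always one for a membrane or secreted protein. In the class with several stretches 36.7% of genes lay below the median gene by 2-fold or more and 3.51% above it, against 10.5% below and 19.7% above in the class with none. As deposited, 16.4% of genes with several stretches were called higher in cytoplasmic RNA and 10.2% in chromatin RNA, against 51.8% and 2.93% of genes with none. Of the 419 matched genes called higher in chromatin RNA as deposited, 58% had at least 1 stretch, compared with 17.5% of those called higher in cytoplasmic RNA and 32.1% of all matched genes tested.

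Exon length moved with the difference as well. In the tenth of genes with the shortest exons (median 851 bases) 47.4% lay above the median gene and 10.1% below it, and in the tenth with the longest exons (median 7306 bases) 1.65% lay above and 26% below. Genes above the median gene had a median exon length of 1572 bases, those below it 3216 bases, and the rest 2964 bases. Within genes of up to 2095 exon bases the class medians were 0.69 for no stretch, -0.33 for an N-terminal stretch only, 0.07 for 1 internal stretch and -0.34 for several. Within genes of over 3607 exon bases they were -0.10, -0.59, -0.60 and -0.85 in the same order. The class without stretches was therefore highest in each class of exon length, and in each hydrophobic class the longest genes lay lower than the shortest. RPKM divides by exon length and the reads of a transcript are drawn from fragments, and whether short transcripts were counted evenly in both fractions was not tested.

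**Figure D4:**
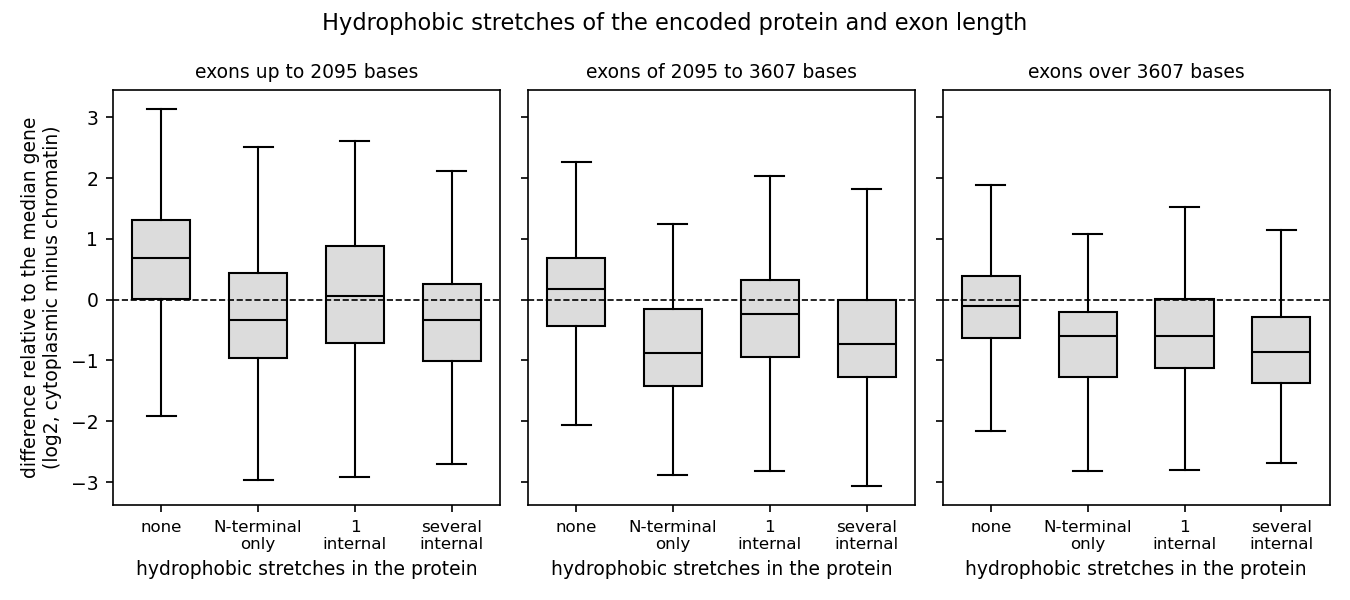
Difference relative to the median gene (log2, cytoplasmic minus chromatin) for genes whose protein has no hydrophobic stretch, an N-terminal stretch only, 1 internal stretch or several, in 3 panels by exon length. Boxes span the quartiles with a line at the median and whiskers reach the last value within 1.5 times the box height, and the box of proteins with no stretch has the highest median in each panel (0.69, 0.18 and -0.10).

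Some genes in the membrane families encode proteins that are not themselves inserted at the endoplasmic reticulum. Apart from Slc25a37 and Slc25a36, the single genes named below were picked because they were called above the median gene. Whether insertion bears on the difference was not tested. The solute carriers were divided after their values were seen into the Slc25 genes, whose proteins are carriers of the mitochondrial inner membrane made on cytosolic ribosomes, and all others. Of 28 Slc25 genes 7 lay above the median gene, 2 below and 19 in neither group, with a median of 0.47. The 2 below, Slc25a37 and Slc25a36, went against the rest of the Slc25 genes. Of 113 other solute carriers 2 lay above, 56 below and 55 in neither group, with a median of -0.99. As deposited, 20 Slc25 genes were called higher in cytoplasmic RNA and 1 in chromatin RNA, against 6 and 23 of the others. Slc25a4, the ADP/ATP exchanger, had 26.8 to 52.9 RPKM in cytoplasmic RNA and 3.63 to 6.32 RPKM in chromatin RNA. The 2 other carriers above the median gene were Slc48a1, a haem transporter, and Slc9a3r1, which is a cytosolic adaptor protein. The ion channel gene called above the median gene was Kcnab2, a soluble beta subunit, with 13.3 to 31.4 RPKM in cytoplasmic RNA and 1.69 to 4.77 RPKM in chromatin RNA. The gene with an MHC-type name above it, H2-Ke2, encodes a subunit of the cytosolic chaperone prefoldin, and had 3.62 to 10.5 RPKM in cytoplasmic RNA and 0.415 to 1.04 RPKM in chromatin RNA. Neither gene's ranges overlapped.

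Machines with membrane and soluble parts were also split after their values were seen, and the difference between their parts was not tested. Over all genes tested 15.6% lay above the median gene and 17.6% below. The counts below rest on few genes, and those of the membrane parts do not stand out from these shares. In the vacuolar proton pump, 3 of 8 genes of the cytosolic V1 sector lay above the median gene and 0 below, while in the membrane V0 sector with its accessory subunits 2 of 9 lay above and 2 below. Atp6v0d1 and Atp6v0d2, the 2 above, encode the d subunit, which sits on the cytosolic face of that sector. In the pathway of protein entry into the endoplasmic reticulum, 2 of 5 genes of the cytosolic signal recognition particle lay above the median gene and 0 below, and of 10 genes of the Sec61, Ssr and Spcs membrane complexes 0 lay above and 1 below. As deposited, 5 of 5 and 3 of 10 were called higher in cytoplasmic RNA, against 42.2% of all genes tested. The particle's genes were led by Srp14, with 25.5 to 49.9 RPKM in cytoplasmic RNA and 3.12 to 4.86 RPKM in chromatin RNA. Of 34 genes for the translocon and chaperones of the endoplasmic reticulum, 13 lay below the median gene, and the 2 above were Srp14 and Srp9. As deposited the balance turned, with 8 of the 34 called higher in cytoplasmic RNA and 2 in chromatin RNA and a median difference of 0.11. Hspa5, the main chaperone of its lumen, had 28.0 to 56.7 RPKM in cytoplasmic RNA and 67.2 to 147 RPKM in chromatin RNA, a difference of -1.18 ± 0.28 (log2, SE; limma adjusted p = 0.000174). Among the Hsp90 chaperones, cytosolic Hsp90ab1 differed by 2.62 (log2) and Hsp90b1 of the lumen by -1.11.

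The nucleoplasmic libraries separated the membrane families from the splicing regulators. In the median gene the nucleoplasmic level was 0.89 above chromatin RNA (log2) and cytoplasmic RNA was 0.13 above nucleoplasmic RNA. For phagocytic and Fc receptors the same medians were 2.17 and -2.46, for lysosomal proteins 2.48 and -2.77, and for integrins 2.34 and -3.2. These families were thus highest in the nucleoplasmic fraction and lower in both others. The splicing regulators had -0.58 and -0.22, so their highest level was in chromatin RNA. Stab1 had 194 to 283 RPKM in nucleoplasmic RNA, above all of its 10 cytoplasmic and chromatin values, and Luc7l3 had 4.13 to 7.49 RPKM there, below all of its chromatin values and overlapping the cytoplasmic ones. Whether membranes of the endoplasmic reticulum stayed with the nuclei of this preparation was not tested.

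Zinc finger genes lay below the median gene, nearly all without a hydrophobic stretch. Of 177 Zfp genes, 52 lay below the median gene and 6 above, with a median of -0.55, and 9 of the 177 encoded a hydrophobic stretch. As deposited the balance turned, with 26 called higher in cytoplasmic RNA and 14 in chromatin RNA and a median difference of 0.25. The difference followed the number of C2H2 fingers, the DNA-binding units of which vertebrate repressors carry long arrays. It was -0.14 relative to the median gene for 1 to 5 fingers (173 genes), -0.50 for 6 to 10 (75 genes) and -0.90 for 11 or more (84 genes). In the last class 44% of genes lay below the median gene and 1.19% above. Within genes of over 3607 exon bases, those with 6 fingers or more had -0.85 and those with none -0.26. Zfp407, which carries a long array of fingers, had 1.69 to 2.88 RPKM in cytoplasmic RNA and 7.09 to 8.41 RPKM in chromatin RNA, with no overlap. Unlike the membrane families, genes with 11 fingers or more had a nucleoplasmic level near that of chromatin RNA (median difference -0.01, log2). The 6 Zfp genes above the median gene included Zfp36l1 and Zfp36l2, which bind AU-rich mRNA through another kind of finger.

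Cytoplasmic ribosomal proteins, among the most abundant mRNAs of any cell, did not stand together. Of 54 genes, 16 lay above the median gene and 16 below, and as deposited 23 were called higher in cytoplasmic RNA and 11 in chromatin RNA. Rpl8, which shared 9.88% of its words with other genes, had 67.7 to 137 RPKM in cytoplasmic RNA and 7.67 to 16.9 RPKM in chromatin RNA. Its ranges did not overlap, and the difference was 3.35 ± 0.27 (log2, SE). Rpl24, with 82.2% shared, had 0.0809 to 0.297 RPKM in cytoplasmic RNA and 1.28 to 3.95 RPKM in chromatin RNA. Ribosomal protein genes with under 50% shared words (18) had a median of 0.68 above the median gene, and those with 50% or more (36) had -0.67. Rps15a, at 8.37% shared and a difference of -1.99, and Rplp1, at 74.1% shared and 3.82, went against this order. Gapdh, a glycolytic enzyme with 84% shared words, was likewise listed at 0.0155 to 0.0892 RPKM in cytoplasmic RNA and 0.828 to 2.56 RPKM in chromatin RNA. How reads with several matches were counted is not given in the sources used here, so values of such genes are uncertain and their place at the chromatin end is no result on the gene. Leaving out genes with 20% or more shared words left 3284 genes higher in cytoplasmic RNA and 381 in chromatin RNA as deposited.

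**Figure D5:**
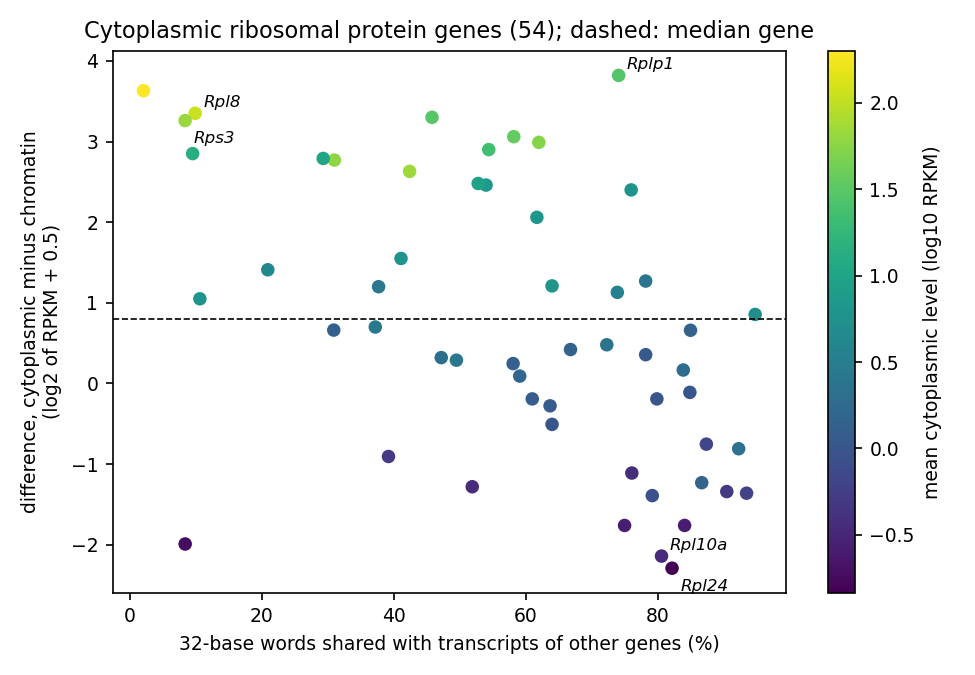
Difference (log2, cytoplasmic minus chromatin) of 54 cytoplasmic ribosomal protein genes against the share of their 32-base words found in transcripts of other genes, coloured by the mean cytoplasmic level (log10 RPKM), with the dashed line at the median gene. Rpl8 and Rps3, with little shared sequence, lie at the top left, and Rpl24 and Rpl10a, with over 80% shared, at the bottom right.

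Inflammatory cytokine and chemokine genes lay towards chromatin RNA at 15 and 30 min. Of 28 cytokine and chemokine genes 13 lay below the median gene and 0 above, and as deposited 0 were called higher in cytoplasmic RNA and 4 in chromatin RNA. Their median relative to the median gene was -0.70, -1.52, -1.61, -0.48 and -0.27 from 0 to 120 min. This relative median was lowest at 15 and 30 min and nearest to 0 at 120 min. The median gene itself moved, with 0.53, 0.66, 1.07, 1.37 and 0.45 as deposited, so equal relative values are not equal differences. A gene near the floor has a difference near 0 as deposited and so lies below the median gene, which limits the reading of 0 min. Csf1, the gene of M-CSF itself, had 1.74, 1.27, 3.18, 17.3 and 14.8 RPKM in cytoplasmic RNA, against 3.19, 4.63, 15.4, 25.9 and 43.5 RPKM in chromatin RNA. Il10, an anti-inflammatory cytokine, had 0.885, 2.01, 11.3, 14.4 and 5.98 RPKM in cytoplasmic RNA, against 2.35, 15.9, 17.2, 18.1 and 14.9 RPKM in chromatin RNA. Chromatin RNA was higher at every time for both genes, and the groups overlapped across times. NF-kappaB subunits and their feedback genes had 7 of 20 below the median gene and 0 above (as deposited 2 higher in cytoplasmic RNA and 3 in chromatin RNA), and the receptor Tlr2 had 6.23 to 65.1 RPKM in cytoplasmic RNA and 8.07 to 88.7 RPKM in chromatin RNA. Immediate early genes had 2 of 29 above and 1 below, and their median relative to the median gene was 0.04, -0.76, 0.30, 0.69 and 0.25 from 0 to 120 min. It was lowest at 15 min and highest at 60 min.

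The authors' table of induced genes sets classes A1 to F, of which 405 genes were tested here. It was made from genes that rose in these chromatin libraries, so a lower difference after stimulation is partly set by that choice and is given as a description. The class A2 median relative to the median gene was -0.14, -1.12, -1.40, 0.42 and 0.09 from 0 to 120 min, and class D had -0.53, -0.94, -1.86, -1.69 and -0.89. Class F had -0.41, -0.21, -0.32, -0.95 and -0.88. The lowest time was thus 30 min in A2 and D and 60 min in F. The median gene stood at 0.53 at 0 min as deposited. Genes near the floor, with a difference near 0, would therefore have a negative relative value at 0 min. Genes with promoters marked LCG by the authors (181) had a median of -1.14 over the 5 times and those marked CpG (224) -0.49.

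A slope of the difference over time order was called for few genes, and a slope does not show that the movement was steady. By limma, 8 genes rose and 3 fell in time order at an adjusted p under 0.05 (0.121% of those tested), and after centring there were 0, with 1054 genes at an unadjusted p under 0.05 and a smallest adjusted p of 0.146. Nfkbiz, a nuclear IkappaB protein, had 1.03, 13.8, 191, 341 and 76.1 RPKM in cytoplasmic RNA, against 4.90, 145, 184, 84.6 and 49.1 RPKM in chromatin RNA. Il1b, the precursor of interleukin-1 beta, had 0.339, 2.61, 162, 463 and 155 RPKM in cytoplasmic RNA, against 1.18, 40.9, 190.5, 163 and 86.8 RPKM in chromatin RNA. Chromatin RNA was higher at 0 and 15 min for Nfkbiz and at 0, 15 and 30 min for Il1b, and cytoplasmic RNA was higher at the later times. For both genes the difference was lowest at 15 min and highest at 60 min. Ifrd1, Fabp4 and Ap1s2 had rising slopes as well, of 0.89, 0.82 and 0.81 per time step (log2). D17Wsu104e fell by 0.83 per step, with 18.6, 15.0, 12.5, 22.3 and 3.20 RPKM in cytoplasmic RNA and 2.93, 3.83, 8.0, 8.28 and 9.38 RPKM in chromatin RNA.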

How the data were processed

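RNA of 15 libraries, 1 per fraction and time, was described by the submitters; the 5 cytoplasmic and 5 chromatin libraries were compared here. The labels' protocols give detergent fractionation, ribosomal RNA depletion and strand-specific libraries. Reads were aligned with TopHat to mm9, per the submitters' processing notes; no source used here names the counting tool or says how multiply matching reads were handled. The authors deposited RPKM values relative to exon length for 10020 genes, per the file headers, and RPKM values of 560 induced genes over a longer length, read as the whole gene. Another 3 columns of values matched no described sample and were not used. One length per gene turned all 15 values into whole reads (tolerance 0.02 reads) for 100.0% of genes and for 559 of 560 induced genes, which gave the depths, and a value without reads stood at 0.0191 RPM.

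From these values, limma 3.58.1 in R 4.3.3 was fitted to log2(RPKM + 0.5), which understates the differences of low genes, with time point as a term and a trended prior (56.5 prior and 4 residual degrees of freedom, so p-values rest largely on the spread shared over genes). Genes needed 1 RPKM in 3 of 10 libraries, and calls needed a Benjamini-Hochberg adjusted p under 0.05 and a 2-fold difference. On simulated data with 9095 genes, 49 of 50 genes changed by 1.5 (log2) and 50 of 50 changed by 2 were called. For a simulated trend 97 of 100 changed genes were called, with 8 false calls. The simulated noise was a chosen value below the spread in the fits here, so the share called in real data may be lower. GENCODE vM21 transcripts (GRCm38), matched by accession for 9850 genes, gave protein features by translation, shared 32-base words and overlaps, and no protein table was used. Gene lists and families were chosen with earlier results of these data known. Named genes were the 12 largest called differences at each end with the same sign in 5 of 5 pairs, a mean of 5 RPKM and a coding transcript, up to 4 called members per family with any called against it, and up to 8 trend genes each way. Family members named here were called after centring. Alternatives were pseudocounts of 0.1 and 1, filters, scalings, priors, thresholds and left-out times.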

Additional observations from a re-analysis of the deposited data

Results flagged for a closer look

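Among 118 sets of 5 values examined, 4 held 1 value far from the rest, where chance gives about 1 in 20. The share of chromatin reads in exons of listed genes was 27.2% at 120 min, above the other 4 chromatin libraries. The median of the ER translocon and chaperone list, relative to the median gene, was -1.29 at 120 min, below the other times. The median of ABC transporters was -0.59 at 60 min, above the other times. Hint1 differed by 2.38 (log2) at 120 min, less than at the other times.

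The difference between cytoplasmic and chromatin RNA moved with time order for 6 named genes by the test of that slope. Per time step it moved by 1.02 for Nfkbiz, 0.89 for Ifrd1, 0.89 for Il1b, 0.82 for Fabp4, 0.81 for Ap1s2 and -0.83 for D17Wsu104e (log2), and none of these passed after centring.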

How the results depend on the processing

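The counts of genes depended on the scaling. The 3842 genes higher in cytoplasmic RNA became 1415 after median centring, 1636 with equal summed RPKM and 1503 with quantile normalization, and 1008 at an adjusted p under 0.01 and 4-fold. The 482 genes higher in chromatin RNA became 1597, 1414 and 1486 under the same scalings, 92 at the stricter threshold, 273 with a filter of 5 RPKM and 948 with no fold requirement. Leaving out each time gave 3376 to 4186 and 434 to 594 genes, or 1349 to 1471 and 1556 to 1650 after centring. Without the term for time the counts were 3727 and 436, and all 15 libraries gave 3842 and 482. Neither change can alter the size of a difference in this balanced design. Only p-values could move these counts, so their closeness says little. The 8 rising and 3 falling trend genes became 0 and 0 after centring and 16 and 11 with no filter. The falling genes became 5 with a pseudocount of 1 and 1 in the comparison of late with early times. Without 0, 15, 30, 60 and 120 min in turn there were 2, 0, 1, 2 and 2063 rising and 1, 0, 1, 1 and 33 falling genes, so the trend depends on single libraries. The exonic share difference was 63.6 percentage points in genes with 20 reads in every library. Of 900 alternative values of family medians, 57 moved by more than 1 SD over times and 13 changed sign. Median centring was among these alternatives and cannot move a median given relative to the median gene, so those values were fixed in advance. The 13 belonged to 7 lists with medians of -0.18 to -0.01 relative to the median gene, among them immediate early genes (-0.06, and 0.32 without 15 min) and the V0 sector (-0.18, and 0.07 without 30 min). All 192 alternative values of the 24 end genes kept their direction and call. These genes were picked for the largest called differences, so this says little about other genes. The cause of these moves was not tested. A single library per fraction and time limits all p-values, which measure variation over times.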

Other observations

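Interferon-stimulated genes were not a family of either end, with 1 of 34 genes above the median gene and 8 below, and as deposited 10 higher in cytoplasmic RNA and 5 in chromatin RNA. Mx1, a gene of this list, had 1.09, 1.39, 2.10, 2.36 and 79.6 RPKM in cytoplasmic RNA, against 7.6, 8.03, 6.58, 29.5 and 616 RPKM in chromatin RNA. Isg15, a ubiquitin-like protein, was the one gene above. Transcription factor families lay near the median gene, with 0 of 28 Ets, Irf and Stat genes above and 0 below, and 2 of 20 nuclear receptors above and 0 below. Glycolytic genes lay towards cytoplasmic RNA, with 6 of 16 above and 2 below, the 2 being Gapdh and the membrane transporter Slc2a1. Of the 16 genes, 7 shared 20% or more of their words with other genes.

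The annotated transcription start was read from the RefSeq promoter table (GRCm38.p6). A C at the start followed by 4 bases that are each C or T, the form of the start of ribosomal protein mRNAs, was found in 8 of 40 matched ribosomal protein genes (20%) and in 3.01% of all genes of the table. It was found in 2.76% of matched genes above the median gene, 2.96% of the rest and 2.39% of those below it. Annotated starts can differ from the starts used in these cells.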
